A study of Mus musculus with 16 samples.

Results

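The genes described here are the autosomal genes whose mean normalized count differed at least 8-fold between untreated WT and untreated Cfp1-/- mouse embryonic stem (ES) cells. They were selected on the measured values of the untreated libraries: Cxxc1, the disrupted gene itself, and genes on chromosomes X and Y were set aside, and the higher of the 2 line means had to reach 200 normalized counts. A normalized count is the read count of a gene divided by a size factor for its library. Of 9155 autosomal genes that reached this mean in either line, 92 (1.00%) passed, 35 of them lower and 57 higher in Cfp1-/- cells. The deposited tables held 22375 genes in all. WT cells were the E14TG2a line, Cfp1-/- cells lack both functional copies of the Cfp1 gene, and both lines carry the strain label 129/OLA and were grown in serum with LIF. Each line was sequenced untreated and after 6 hours in doxorubicin, a DNA damaging drug, as 2 biological replicates of 2 technical replicates each, 16 samples in 4 groups. The protocol gives the dose as 1 μM, whereas the treatment label of the samples gives 1 mM. Neither the labels nor the study's methods say that several Cfp1-/- clones were used, so an effect of the mutation and any other difference between the lines cannot be told apart.

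Cfp1, the product of Cxxc1, binds unmethylated CpG dinucleotides and is a subunit of the Set1 complexes, which trimethylate lysine 4 of histone H3 (H3K4me3) at active promoters. Most promoters of broadly expressed mammalian genes lie in CpG islands, which are rich in unmethylated CpG, whereas many promoters of tissue-restricted genes are CpG-poor. ES cells keep genes of the germ line and of differentiated tissues at low levels, and imprinted genes are expressed from the copy inherited from 1 parent. The comparison of the lines bears on how steady-state expression differs in cells without Cfp1, and the treated libraries, which had no part in selecting the genes, allow the same difference to be tested.

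Cxxc1 had 1412 and 1117 raw counts in untreated WT cells, 616 and 829 in treated WT cells, and between 1 and 5 in each Cfp1-/- replicate, as the labels state. Summed counts of a biological replicate ran from 14880589 to 29422711. Replicate 1 of treated Cfp1-/- cells was sequenced in a pair of runs, and its run 2 lacked counts for much of chromosomes 19, X and Y. Of 291 chromosome 19 genes that run 1 covered with 200 counts or more, 209 were at 0 in run 2. The 3 genes of the set on chromosome 19, 1700011F14Rik, Cpn1 and Ablim1, were among those at 0, and their treated differences are given with and without run 2. The 10 ES cell markers examined, Pou5f1 and Nanog among them, were at 10 or more normalized counts on average in every group. Their summed level was 77736 to 103070 in untreated WT and 83916 to 87370 in untreated Cfp1-/- replicates. Single markers differed both ways: Nanog had 6419 and 3651 against 14050 and 13038, and Esrrb 6901 and 3177 against 13187 and 9920. Zfp42 had 15661 and 9967 against 5035 and 5077, and Pou5f1 16753 and 13807 against 9207 and 9918. The summed level of 10 markers of extraembryonic endoderm was 2142 to 2632 in untreated WT and 12623 to 12837 in untreated Cfp1-/- replicates, and 1665 to 1675 and 7057 to 7709 in treated replicates. Lama1 and Col4a1 made up most of it. Sox17, Foxa2, Ttr and Afp stayed under 25 normalized counts in every replicate. Untreated WT and Cfp1-/- replicates had 15.3 and 4.17 against 38.0 and 15.2 for Gata6, and 91.7 and 191 against 322 and 138 for Dab2. For Sox7 they had 37.4 and 14.6 against 38.9 and 21.1, for Gata4 20.4 and 11.5 against 5.56 and 5.92. Afp had 0 and 0 against 4.64 and 5.07. Markers of fibroblast feeders summed to 85.3 to 512 over all 8 biological replicates, with 4 of 8 markers under a mean of 10 in untreated WT and 5 of 8 in untreated Cfp1-/- cells. For trophoblast and mesoderm markers the sums over the 4 untreated replicates were 185 to 337 and 205 to 393. Of 5 neural markers 3 were measured, Pax6, Nes and Tubb3. They summed to 3746 and 4682 in untreated WT and 2328 and 3169 in untreated Cfp1-/- replicates. Primed epiblast markers summed to 14774 and 24971 against 9979 and 12753. Pax6 and Fgf5 are in these sums and were selected on these same libraries, which favours lower Cfp1-/- sums. Pax6 had 1761 and 738 against 108 and 91.3, and Nes 1026 and 3036 against 706 and 1084. Dnmt3b made up most of the epiblast sums, at 13067 and 22781 against 9359 and 11402. Not every marker of these types was lower in Cfp1-/- cells: Tubb3 had 959 and 908 against 1515 and 1994 normalized counts, and Pou3f1 0 and 0 against 84.4 and 214. The part of these cell types in the results was not tested, and in bulk RNA fewer cells of a type and less RNA per cell cannot be told apart.

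The promoters of both sets were poorer in CpG than those of other genes at comparable levels. In a window from 250 bases before to 50 bases after the 5′ end of each gene in the deposited tables (NCBIM37), the observed over the expected number of CpG had a median of 0.556 for the 35 genes lower in Cfp1-/- cells, 0.481 for the 57 higher ones and 0.787 for the 9063 other autosomal genes with a mean of at least 200. A ratio of at least 0.6, a common limit for CpG islands, was met by 14 of 35, by 21 of 57 (36.8%) and by 6891 of 9063 (76.0%) of these genes, and by 45.9% of all autosomal genes in the tables. Among genes with a higher mean between 200 and 1000 the shares were 41.7%, 37.0% and 69.4%, and among those at 1000 or more they were 36.4%, 36.4% and 81.4%, so the gap was present at both levels. This is a description of the selected genes and was not tested. The 200 bases before the 5′ end are printed 5′ to 3′ on the gene's strand for 6 genes described below, chosen to span CpG-rich and CpG-poor promoters in both directions, with every CpG in capitals. Gbp1 has 1 CpG in chr3:142257611-142257810 (plus strand) and Sycp3 has 10 in chr10:87922114-87922313 (plus strand), and both were lower in Cfp1-/- cells. Saa3 has 2 in chr7:53971047-53971246 (minus strand), Adnp 12 in chr2:168032613-168032812 (minus strand), Asz1 15 in chr6:18059062-18059261 (minus strand) and Olig2 17 in chr16:91225595-91225794 (plus strand), and these 4 were higher in Cfp1-/- cells.
Gbp1: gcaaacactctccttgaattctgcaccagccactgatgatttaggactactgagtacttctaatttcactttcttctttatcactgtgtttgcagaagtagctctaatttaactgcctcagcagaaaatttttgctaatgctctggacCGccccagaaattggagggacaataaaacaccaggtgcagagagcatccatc
Sycp3: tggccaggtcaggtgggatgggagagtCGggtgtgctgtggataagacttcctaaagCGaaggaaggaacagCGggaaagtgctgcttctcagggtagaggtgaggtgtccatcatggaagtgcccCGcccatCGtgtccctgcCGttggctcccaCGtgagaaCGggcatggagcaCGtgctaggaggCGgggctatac
Saa3: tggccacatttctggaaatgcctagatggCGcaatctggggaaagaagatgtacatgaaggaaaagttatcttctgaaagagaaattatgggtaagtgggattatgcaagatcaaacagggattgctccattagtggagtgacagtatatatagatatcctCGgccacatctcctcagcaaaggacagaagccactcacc
Adnp: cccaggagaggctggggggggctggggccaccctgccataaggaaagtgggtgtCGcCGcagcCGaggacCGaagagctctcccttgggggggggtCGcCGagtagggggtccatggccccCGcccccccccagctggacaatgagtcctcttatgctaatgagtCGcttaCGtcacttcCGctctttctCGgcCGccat
Asz1: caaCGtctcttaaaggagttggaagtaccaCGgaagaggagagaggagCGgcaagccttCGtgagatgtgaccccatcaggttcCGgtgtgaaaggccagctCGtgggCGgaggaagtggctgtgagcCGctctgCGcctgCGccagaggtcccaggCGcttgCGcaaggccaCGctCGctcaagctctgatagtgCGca
Olig2: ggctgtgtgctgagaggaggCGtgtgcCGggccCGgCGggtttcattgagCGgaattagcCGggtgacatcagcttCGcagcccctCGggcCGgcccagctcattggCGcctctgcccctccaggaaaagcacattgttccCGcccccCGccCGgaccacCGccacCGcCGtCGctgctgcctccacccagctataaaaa

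**Figure D1:**
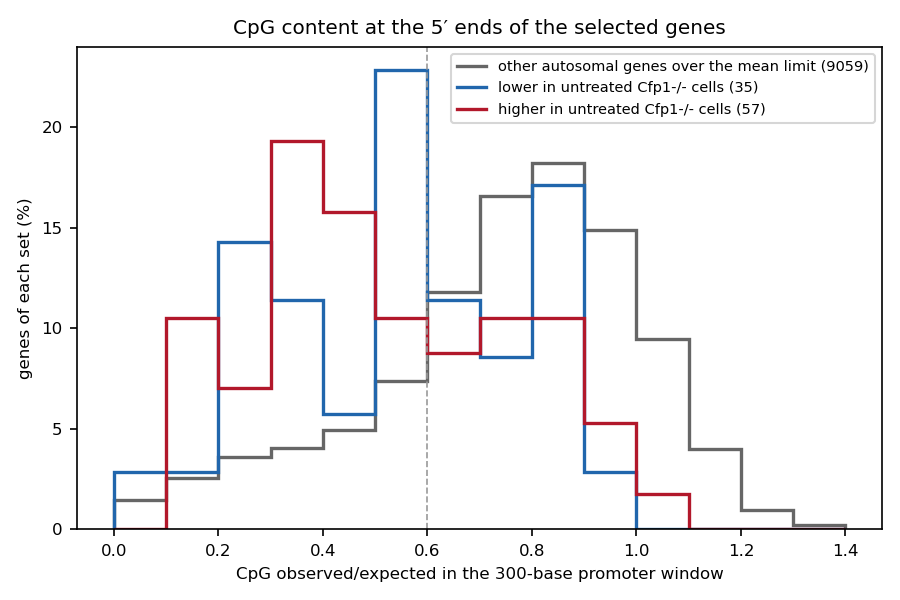
Share of genes (%) by CpG observed/expected ratio of the 300-base promoter window, in steps of 0.1, for the 35 genes lower (blue) and 57 genes higher (red) in untreated Cfp1-/- cells and for other autosomal genes with a mean of at least 200 (grey, 9059 genes, since the ratio is undefined for 4 of the 9063). The grey line lies mostly to the right of the dashed limit of 0.6 and both coloured lines mostly to its left.

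Among the genes lower in Cfp1-/- cells the low line ran from a few counts to 616 normalized counts (Car2), and the mean of 5 genes was under 10. Among those higher in Cfp1-/- cells the WT mean was under 10 for 9 genes and at most 514 (Tbx3). Replicates of untreated WT cells lay more than 2-fold apart for 15 of the 35 lower and 12 of the 57 higher genes, against 5 and 6 in untreated Cfp1-/- cells. The limits cut through a continuum. Just inside the 8-fold limit were Ccnb1ip1 (8.09-fold), Car2 (8.27-fold) and St6gal2 (8.48-fold) on the lower side and A2m (8.10-fold), Hormad2 (8.26-fold) and Atp1b2 (8.31-fold) on the higher side. Abca1 (7.91-fold) and Ccnd2 (7.83-fold) fell just outside it on the lower side, as did Kndc1 (7.90-fold), Lsm3 (7.76-fold) and Aqp3 (7.66-fold) on the higher side. At the limit on the mean, Hebp1 (206 normalized counts), Atp1a4 (209) and Prss23 (213) were just inside and Tmem54 (189), Rfx4 (181) and Xkr4 (178) just outside on the lower side. On the higher side Saa3 (214), Olig1 (216) and BC046404 (224) were just inside, and 1700048O20Rik (189), Gm9396 (186) and Myl4 (185) just outside.

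**Figure D2:**
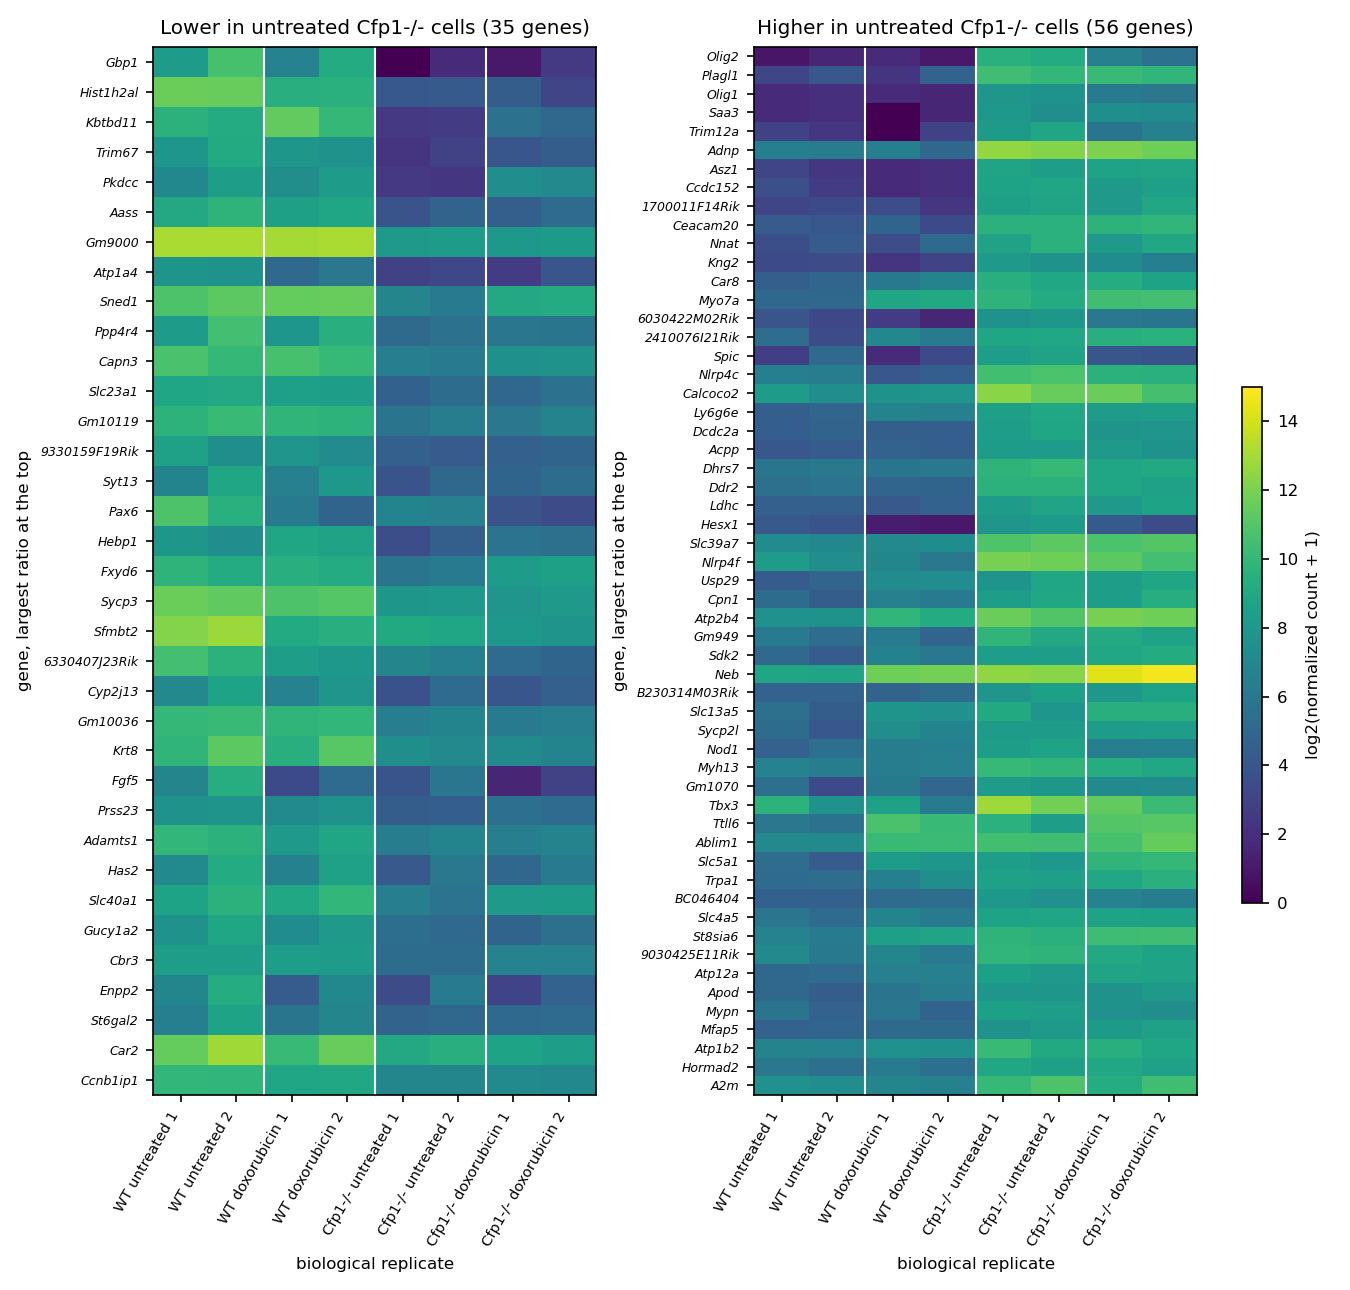
Normalized count of the selected genes (rows, largest untreated ratio at the top) in each of the 8 biological replicates (columns), as log2(normalized count + 1). The left panel holds the 35 genes lower and the right panel the genes higher in untreated Cfp1-/- cells except 1 that is not reported here, and most rows keep their line difference in the doxorubicin columns, with exceptions such as Pkdcc, Nod1 and Ttll6.

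The line difference was also present in treated cells for most genes. Of the 35 genes lower in untreated Cfp1-/- cells, all of which could be tested, 30 were lower in treated Cfp1-/- than in treated WT cells at an adjusted p-value under 0.05 (edgeR's quasi-likelihood test, Benjamini-Hochberg adjustment over 15758 genes), where 10.8% of all tested genes were called lower. Of the 57 genes higher in untreated Cfp1-/- cells, likewise all tested, 54 were called higher in treated Cfp1-/- cells, where 15.1% of all tested genes were. A gene near 0 in 1 line can pass the filter on low counts through the other line alone. All 92 kept the sign of their difference. The median log2 difference, Cfp1-/- minus WT, was -3.54 untreated and -2.51 treated for the lower genes, and 3.93 and 3.10 for the higher genes, against 0.01 and 0.02 over all tested genes. The treated difference still met both selection limits for 13 of the 35 and 22 of the 57 genes, where 0.125% and 0.224% of 15177 tested autosomal genes did so in the respective direction. These 13 and 22 genes were 68.4% of the 19 and 64.7% of the 34 autosomal genes that met both limits in the treated lines.

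**Figure D3:**
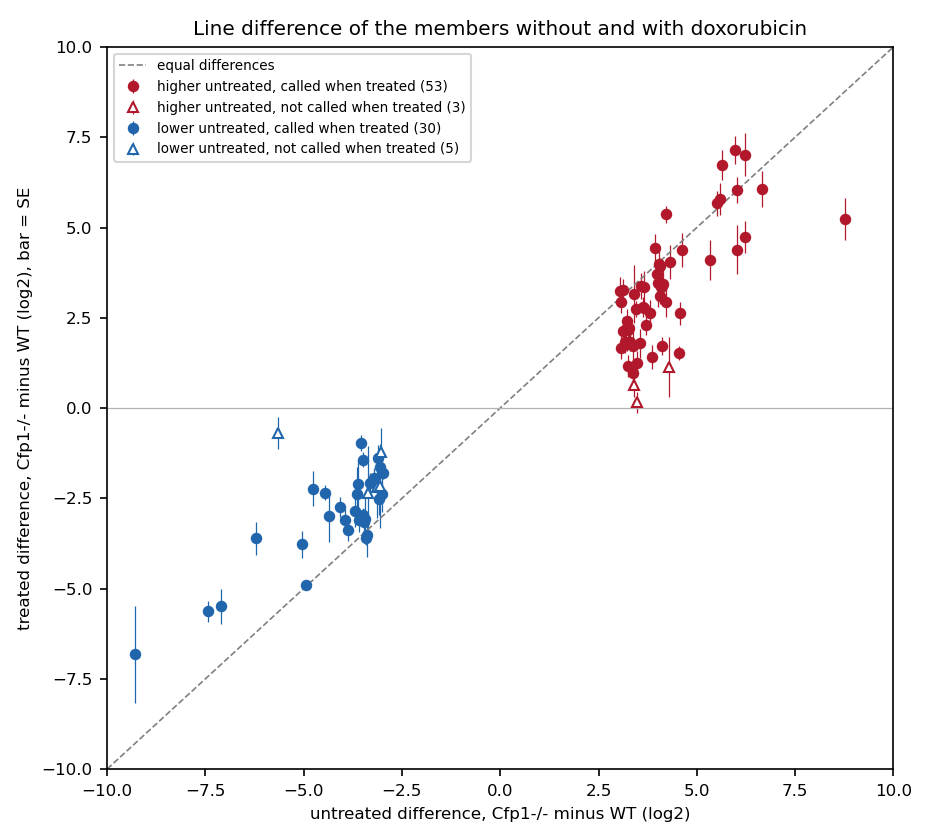
Line difference of each gene (log2, Cfp1-/- minus WT) in untreated cells (horizontal axis, the values that selected the genes) and in treated cells (vertical axis, with SE bars), without 1 higher gene that is not reported here. Filled circles were called in treated cells (30 lower, 53 higher) and open triangles were not (5 and 3), and most points lie on the side of the dashed line of equal differences that is nearer to 0.

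The calls of 17 of these genes depended on a single library. Ablim1 was among the 17, and the fits that lost its call kept the affected run, in which it had 0 counts. With all 8 biological replicates but without that run, its treated log2 difference was 1.22 (SE 0.132, edgeR adjusted p = 0.00048). Of the 30 lower and 54 higher genes called, 21 and 46 stayed called whichever of the 8 biological replicates was left out. Each of the remaining 9 and 8 lost its call in at least 1 of these fits while its log2 difference kept its sign. The highest adjusted p-values reached on the lower side were 0.0562 for Gbp1, 0.0646 for Atp1a4, 0.0941 for Fxyd6 and 0.0827 for Cyp2j13 without replicate 1 of treated Cfp1-/- cells. They were 0.101 for Ppp4r4 and 0.0702 for Car2 without replicate 2 of treated Cfp1-/- cells, 0.245 for Syt13 and 0.164 for Slc40a1 without replicate 2 of treated WT cells, and 0.230 for Pax6 without replicate 1 of treated WT cells. On the higher side they were 0.108 for Usp29 and 0.0948 for Ablim1 without replicate 2 of treated Cfp1-/- cells. Without replicate 1 of treated Cfp1-/- cells they were 0.105 for Tbx3, 0.119 for BC046404 and 0.0510 for Atp1b2, and without replicate 2 of treated WT cells 0.0576 for Slc13a5, 0.136 for Sycp2l and 0.200 for Gm1070. Some genes that were not called passed the test with fewer libraries. Without replicate 1 or 2 of untreated WT cells the adjusted p-values were 0.0382 and 0.0402 for Has2 and 0.0350 and 0.0430 for St6gal2. Has2 was also called without replicate 1 of treated WT cells (0.0382), and Ttll6 without replicate 1 or 2 of untreated Cfp1-/- cells (0.0419 and 0.0446).

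Genes of meiosis and the germ line stood on both sides. Sycp3 (ENSMUSG00000020059, chromosome 10, 87922314 to 87935981) encodes a protein of the axial elements that hold meiotic chromosomes and has the moderately CpG-rich promoter shown above. It had 3130 and 2610 normalized counts in untreated WT, 1759 and 2129 in treated WT, 244 and 253 in untreated Cfp1-/- and 227 and 268 in treated Cfp1-/- replicates. Each Cfp1-/- replicate was thus far below each WT replicate, with or without doxorubicin. In treated cells the log2 difference was -2.95 (SE 0.172, adjusted p = 1.93e-05). Ccnb1ip1, whose product acts in meiotic crossing over, had 986 and 918 normalized counts in untreated WT and 120 and 116 in untreated Cfp1-/- replicates, and the treated log2 difference was -1.79 (SE 0.176, adjusted p = 0.000317).

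Asz1 (ENSMUSG00000010796, chromosome 6, 18000964 to 18059061), which is needed in the germ line for transposon silencing by piRNAs, had the opposite pattern. Its normalized counts were 7.64 and 4.17 in untreated WT, 2.62 and 3.17 in treated WT, 429 and 329 in untreated Cfp1-/- and 419 and 429 in treated Cfp1-/- replicates. The gene was barely detected in WT cells and moderately in Cfp1-/- cells, with a treated log2 difference of 7.15 (SE 0.38, adjusted p = 1.47e-05). Nlrp4c and Nlrp4f belong to a family of NLR genes expressed in oocytes, and reads shared between its near-identical members may have been split or lost in counting. Nlrp4c had 86.6 and 81.3 normalized counts in untreated WT and 1383 and 1702 in untreated Cfp1-/- replicates, and 15.7 and 21.1 against 783 and 739 in treated replicates. Nlrp4f had 309 and 171 against 3871 and 3360 untreated, and 119 and 64.4 against 2365 and 1494 treated. The treated log2 differences of Nlrp4c and Nlrp4f were 5.37 (SE 0.231, adjusted p = 4.59e-06) and 4.44 (SE 0.379, adjusted p = 0.000175). Hormad2, a protein of meiotic chromosome axes, had 62.0 and 45.9 against 516 and 374 normalized counts untreated and 74.7 and 43.3 against 496 and 389 treated, a treated log2 difference of 2.95 (SE 0.321, adjusted p = 0.000519). Of 61 tested autosomal genes on a list of germline and meiosis genes, 6 were lower and 22 higher in treated Cfp1-/- cells. Among all tested genes 10.8% and 15.1% were. The median log2 difference of the list was 0.49. Only 32 of the list reached the mean of 200 in an untreated line, and 1 (Sycp3) and 3 (Asz1, Hormad2, Nlrp4c) of these passed the 8-fold limit. The list was chosen by gene name and leaves out other such genes of the set, among them Ccnb1ip1 and Nlrp4f, so its counts are not complete in either direction.

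Imprinted genes with an 8-fold difference were Plagl1, Nnat and Usp29 on the higher and Sfmbt2 on the lower side. Plagl1 (ENSMUSG00000019817, chromosome 10, 12810497 to 12851500), a zinc finger protein that restrains growth, had 7.64 and 15.6 normalized counts in untreated WT, 3.93 and 25.3 in treated WT, 1325 and 957 in untreated Cfp1-/- and 1131 and 924 in treated Cfp1-/- replicates. WT replicates were at the low end of the scale in both conditions, and the treated log2 difference was 6.07 (SE 0.491, adjusted p = 0.000126). Nnat, which encodes a small membrane protein of developing neurons, had 11.0 and 18.8 against 393 and 787 normalized counts untreated and 10.5 and 33.8 against 270 and 507 treated, a treated log2 difference of 4.10 (SE 0.55, adjusted p = 0.00123). Usp29, a ubiquitin protease gene next to Peg3, had 19.5 and 28.1 in untreated WT but 152 and 161 in treated WT replicates, against 219 and 461 and then 341 and 477 in Cfp1-/- replicates. Its treated log2 difference was 1.41 (SE 0.344, adjusted p = 0.016). Sfmbt2 (ENSMUSG00000061186, chromosome 2, 10292137 to 10516880), a Polycomb-related gene of extraembryonic tissues, had 4698 and 6776 in untreated WT, 579 and 705 in treated WT, 552 and 450 in untreated Cfp1-/- and 251 and 216 in treated Cfp1-/- replicates. Treated WT replicates were therefore close to untreated Cfp1-/- replicates, and the treated log2 difference was -1.43 (SE 0.212, adjusted p = 0.00187). On the list of imprinted genes, 49 autosomal genes were tested, of which 7 were lower and 16 higher in treated Cfp1-/- cells. The shares over all tested genes were 10.8% and 15.1%, and the list had a median log2 difference of 0.15.

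Several developmental regulators were higher in Cfp1-/- cells. Olig2 (ENSMUSG00000039830, chromosome 16, 91225795 to 91228922) and Olig1, a pair of basic helix-loop-helix factors of the oligodendrocyte and motor neuron lineages, lie on chromosome 16 with 41.1 kb between them and no other gene of the 9155 in that gap. Olig2 had 3 raw counts in all in the untreated WT replicates and 3 in the treated WT replicates. In Cfp1-/- cells it had 723 and 593 normalized counts untreated and 91.9 and 48.2 treated. The ratio of the lines was 467 untreated (95% exact interval from counting error alone 159 to 2265) and 39.6 treated (13.3 to 194), with a treated log2 difference of 5.24 (SE 0.579, adjusted p = 0.000558). Olig1 had 2.55 and 3.13 normalized counts in untreated WT and 230 and 202 in untreated Cfp1-/- replicates, and 2.62 and 2.11 against 68.4 and 60.7 when treated, a log2 difference of 4.74 (SE 0.432, adjusted p = 0.000239). Both genes were thus near the floor in every WT replicate and lower in each treated than in each untreated Cfp1-/- replicate. Both have 17 CpG in the 200 bases before their 5′ end. Adnp (ENSMUSG00000051149, chromosome 2, 168006486 to 168032612), a homeodomain zinc finger protein with a role in chromatin, had 86.6 and 80.3 normalized counts in untreated WT, 86.5 and 31.7 in treated WT, 5999 and 4710 in untreated Cfp1-/- and 4156 and 3267 in treated Cfp1-/- replicates. Its log2 difference was 6.04 in treated cells (SE 0.365, adjusted p = 2.10e-05) and differed from the untreated value by 0.01 (SE 0.406).

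Tbx3, a T-box factor that supports the naive pluripotent state, had 818 and 210 normalized counts in untreated WT and 7124 and 3548 in untreated Cfp1-/- replicates, and 377 and 73.9 against 2731 and 1187 when treated. Replicate 1 was over 2-fold above replicate 2 in every group, and the treated log2 difference was 3.17 (SE 0.802, adjusted p = 0.0188, and 0.105 without replicate 1 of treated Cfp1-/- cells). It was the only one of 42 listed pluripotency genes that passed the 8-fold limit. Of these 42, 7 were lower and 6 higher in treated Cfp1-/- cells, where 10.8% and 15.1% of all tested genes were. The median log2 difference of the 42 was 0.12. Spic, an Ets-family factor of macrophages, had 5.95 and 33.4 normalized counts in untreated WT and 338 and 394 in untreated Cfp1-/- replicates, but 2.62 and 9.51 against 15.3 and 12.5 when treated. Its treated difference of 1.14 (SE 0.825, adjusted p = 0.335) did not pass the test. Hesx1, a homeobox gene of the early forebrain and pituitary, had 17.0 and 13.6 against 229 and 260 normalized counts untreated. In treated cells 2 raw counts remained over both WT replicates and 28 over both Cfp1-/- replicates, a ratio of 11.9 (95% exact interval 2.99 to 103).

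Pax6, Fgf5 and Krt8 were the lower genes on a list of regulators and markers of primed and germ-layer cells. Pax6 (ENSMUSG00000027168, chromosome 2, 105509053 to 105543317), a factor of eye and forebrain development, had 1761 and 738 normalized counts in untreated WT, 74.7 and 27.5 in treated WT, 108 and 91.3 in untreated Cfp1-/- and 13.3 and 9.64 in treated Cfp1-/- replicates. Treated replicates were below untreated ones in both lines, and treated WT below untreated Cfp1-/- replicates. The treated log2 difference was -2.09 (SE 0.642, adjusted p = 0.0389), a call lost without replicate 1 of treated WT cells (adjusted p = 0.230), without any of the 4 Cfp1-/- replicates (from 0.0528 to 0.185), and without run 2 of replicate 1 of both treated groups (0.0503). Fgf5, a growth factor of primed epiblast, had 110 and 658 normalized counts in untreated WT and 13.9 and 58.3 in untreated Cfp1-/- replicates, and 9.17 and 37.0 against 2.04 and 6.75 treated. Its treated log2 difference of -2.36 (SE 1.30, adjusted p = 0.207) did not pass the test. Krt8, a keratin of simple epithelia, had 906 and 2421 against 177 and 133 normalized counts untreated and 693 and 2176 against 136 and 109 treated, a treated log2 difference of -3.53 (SE 0.587, adjusted p = 0.00315). Of this list, to which Olig2 also belongs, 54 autosomal genes were tested. Of these 6 were lower and 11 higher in treated Cfp1-/- cells, where 10.8% and 15.1% of all tested genes were. The median log2 difference of the 54 was 0.36.

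**Figure D4:**
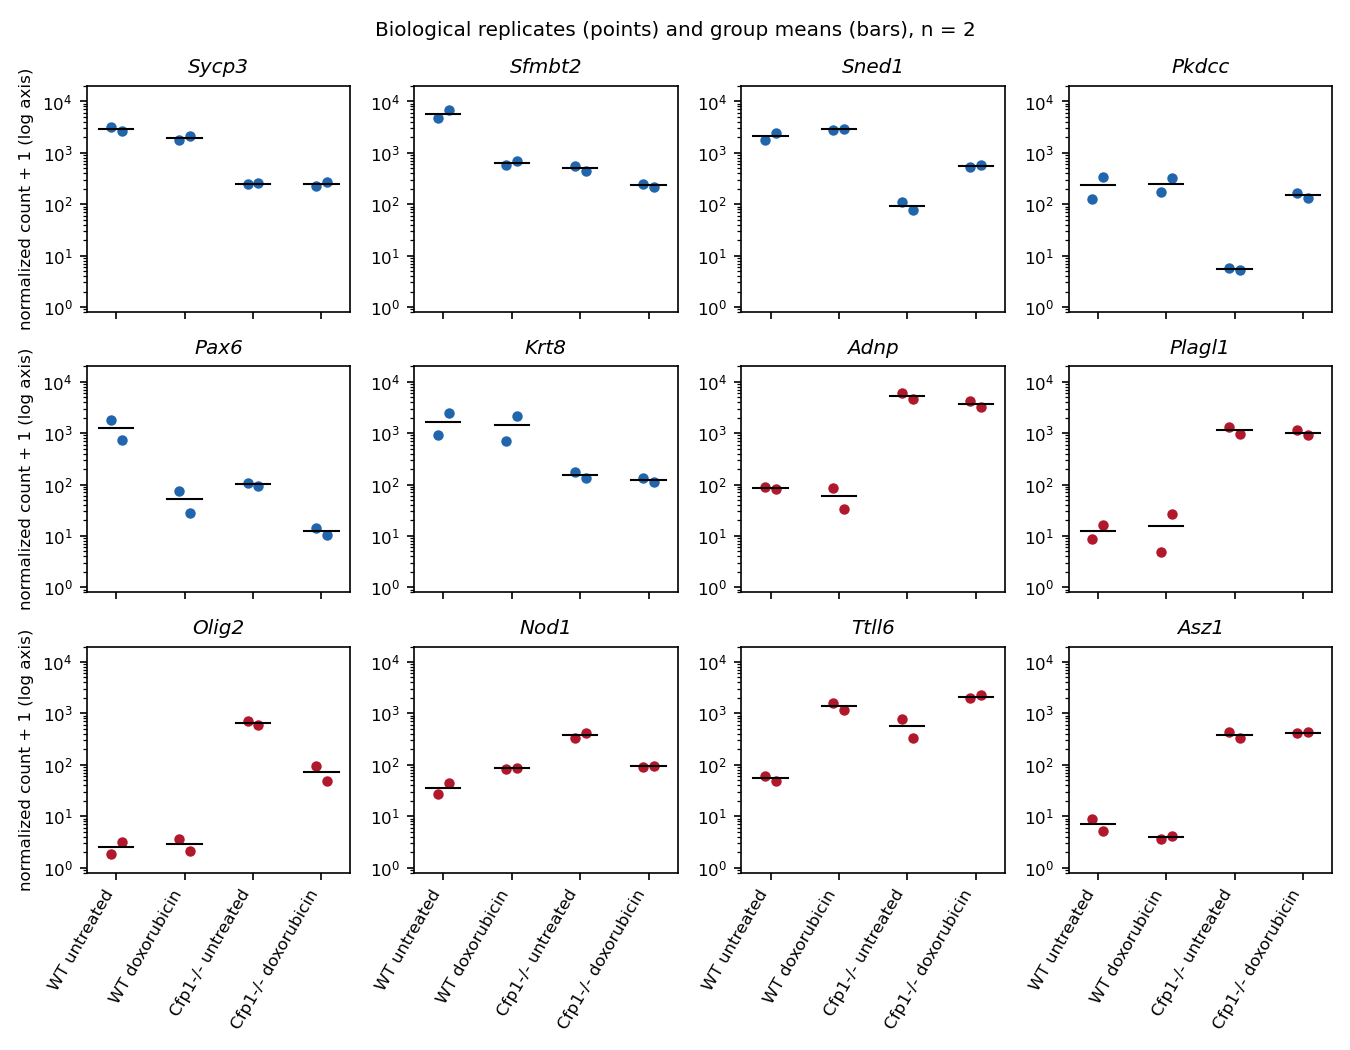
Normalized count + 1 (log axis) of 12 genes in the 2 biological replicates (points) of each group, with group means (bars), for genes lower (blue) and higher (red) in untreated Cfp1-/- cells. Sycp3, Krt8, Adnp, Plagl1 and Asz1 show the line difference with and without doxorubicin, Pkdcc and Nod1 show treated lines close together, and Sfmbt2, Pax6 and Ttll6 show treated WT cells close to or past untreated Cfp1-/- cells.

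Other genes on the lower side, some of them for secreted proteins, included the gene whose difference changed most with doxorubicin. Pkdcc (ENSMUSG00000024247, chromosome 17, 83614623 to 83624410), a secreted tyrosine kinase, had 127 and 344 normalized counts in untreated WT, 169 and 317 in treated WT, 4.64 and 4.23 in untreated Cfp1-/- and 162 and 132 in treated Cfp1-/- replicates. The ratio of WT to Cfp1-/- means was 53.2 untreated and 1.65 treated, and the treated log2 difference of -0.70 (SE 0.445, adjusted p = 0.273) did not pass the test. Sned1, a protein of the extracellular matrix, had 1805 and 2384 against 110 and 75.2 normalized counts untreated and 2822 and 2968 against 533 and 591 treated, a treated log2 difference of -2.34 (SE 0.198, adjusted p = 0.000168). Kbtbd11, which encodes a protein with BTB and kelch domains, had 796 and 594 against 4.64 and 5.07 untreated and 2685 and 1027 against 49.0 and 31.8 treated. Its values in treated replicates were above those in untreated replicates of the same line, and the treated log2 difference was -5.49 (SE 0.475, adjusted p = 0.000184). Trim67 had 236 and 583 against 3.71 and 6.76 untreated and 245 and 202 against 15.3 and 20.2 treated, a log2 difference of -3.61 (SE 0.47, adjusted p = 0.00105). Adamts1, a secreted metalloprotease, had a treated log2 difference of -1.94 (SE 0.279, adjusted p = 0.00168). It alone passed the 8-fold limit among 73 genes at a mean of 200 on the list of matrix and adhesion genes. That list was chosen by families of gene symbols and leaves out Sned1. Has2, which makes hyaluronan, Enpp2, which makes lysophosphatidic acid, and St6gal2, a sialyltransferase, had treated log2 differences of -2.19 (SE 0.853), -2.16 (SE 1.17) and -1.23 (SE 0.662) that did not pass the test, with adjusted p = 0.0869, 0.201 and 0.199. For each of these 3 genes the untreated WT replicates lay over 4-fold apart, at 136 and 595, 118 and 618, and 87.5 and 420 normalized counts. In treated cells Enpp2 had 19.6 and 126 normalized counts in WT and 7.15 and 25.1 in Cfp1-/- replicates, so the lines overlapped.

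The enzymes and transporters described next were all called lower in treated Cfp1-/- cells, by smaller ratios than in untreated cells. Aass, which starts lysine degradation, had 527 and 849 against 13.9 and 26.2 normalized counts untreated, and a treated log2 difference of -3.78 (SE 0.371, adjusted p = 0.000317). Car2, a cytosolic carbonic anhydrase, had 2798 and 7381 against 528 and 704 untreated and 1161 and 2915 against 421 and 342 treated, a log2 difference of -2.39 (SE 0.494, adjusted p = 0.00806, and 0.0702 without replicate 2 of treated Cfp1-/- cells). Slc40a1, the iron exporter ferroportin, had 416 and 786 against 83.4 and 52.4 untreated and 498 and 983 against 272 and 282 treated, and Slc23a1, a vitamin C transporter, had 465 and 520 against 24.1 and 38.0 untreated and 346 and 332 against 30.6 and 47.2 treated. Their treated log2 differences were -1.40 (SE 0.377, adjusted p = 0.0242, and 0.164 without replicate 2 of treated WT cells) and -3.09 (SE 0.287, adjusted p = 0.000249). Fxyd6, which modulates the sodium pump, had 880 and 604 against 54.7 and 70.1 untreated and 705 and 606 against 298 and 362 treated. Its treated log2 difference was -0.96 (SE 0.226, adjusted p = 0.0138, and 0.0941 without replicate 1 of treated Cfp1-/- cells). Cbr3, a carbonyl reductase that can act on anthracycline drugs, had 331 and 322 against 38.0 and 38.0 untreated and 324 and 307 against 101 and 98.3 treated, a log2 difference of -1.64 (SE 0.205, adjusted p = 0.000915). Of 500 tested transporter and channel genes, 28 were lower and 92 higher in treated Cfp1-/- cells, where 10.8% and 15.1% of all tested genes were. The median log2 difference of the 500 was 0.18.

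For some lower genes that belong to families of similar sequences or overlap another gene, reads may have been split or lost in counting, which was not tested. Gbp1, an interferon-inducible guanylate-binding protein with close relatives, had 296 and 1569 normalized counts in untreated WT and 101 and 606 in treated WT replicates, with 3 raw counts over both untreated Cfp1-/- replicates. The untreated ratio was 654 (95% exact interval from counting error alone 223 to 3174), and the treated log2 difference was -6.82 (SE 1.33, adjusted p = 0.00638, and 0.0562 without replicate 1 of treated Cfp1-/- cells). No gene of a list of interferon and antigen presentation genes passed the 8-fold limit. In treated Cfp1-/- cells 3 and 5 of its 43 tested members were lower and higher, where 10.8% and 15.1% of all tested genes were. Hist1h2al, a histone H2A gene, had 3183 and 2905 against 16.7 and 17.7 normalized counts untreated and 696 and 720 against 20.4 and 7.71 treated. Gm9000, which lies within Pde4d on the same strand, had 8701 and 8864 against 267 and 295 untreated and 8072 and 8619 against 258 and 291 treated, so its difference was the same in both conditions to within 0.04 (SE 0.177) on the log2 scale. Gm10119 and Gm10036 had treated log2 differences of -3.39 (SE 0.288) and -3.60 (SE 0.197). These 5 genes were all lower in treated Cfp1-/- cells, the last 4 with adjusted p-values of at most 0.000171.

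Genes of motor and actin-binding proteins higher in Cfp1-/- cells included Neb, Myo7a, Myh13 and Ablim1. Neb (ENSMUSG00000026950, chromosome 2, 51992167 to 52194318), the giant thin-filament protein nebulin, had the highest count of the set, with 463 and 435 normalized counts in untreated WT, 3308 and 3688 in treated WT, 5791 and 5263 in untreated Cfp1-/- and 20417 and 26995 in treated Cfp1-/- replicates. It was thus higher in treated than in untreated replicates of both lines and had a treated log2 difference of 2.78 (SE 0.162, adjusted p = 1.93e-05). Counts are not divided by gene length, and Neb has 26369 bases of exons. Per kb of exon its untreated Cfp1-/- mean was 210 normalized counts, against 10189 for Gm9000 in untreated WT cells. Myo7a, an unconventional myosin of inner ear hair cells, had 32.3 and 31.3 against 857 and 609 untreated and 453 and 549 against 1378 and 1446 treated, a treated log2 difference of 1.52 (SE 0.196, adjusted p = 0.00101). Myh13, a myosin of eye muscles, had 101 and 79.2 against 1056 and 897 untreated and 77.3 and 92.9 against 624 and 508 treated, a treated log2 difference of 2.75 (SE 0.224, adjusted p = 0.000131). Ablim1, an actin-binding protein on chromosome 19, had 134 and 136 against 1430 and 1342 untreated, and a treated log2 difference of 0.97 (SE 0.232, adjusted p = 0.0146) that was 1.22 (SE 0.132, adjusted p = 0.00048) without the affected run. The same step moved Cpn1, a subunit of carboxypeptidase N, from 2.62 to 2.87, and 1700011F14Rik from 5.79 to 6.04.

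Slc39a7, a zinc transporter of the endoplasmic reticulum, had 149 and 125 against 1861 and 2386 normalized counts untreated and 134 and 155 against 1698 and 2004 treated, a log2 difference of 3.70 (SE 0.195, adjusted p = 1.47e-05) against 3.98 untreated. Slc5a1, which takes up glucose with sodium, had 39.9 and 18.8 against 321 and 256 untreated and 307 and 233 against 888 and 1013 treated. Slc13a5, a citrate transporter, had 45.9 and 20.8 against 549 and 233 untreated and 217 and 192 against 706 and 685 treated. Both were higher in all treated than in all untreated replicates of the same line, and the treated log2 differences were 1.84 (SE 0.275, adjusted p = 0.00198) and 1.79 (SE 0.395, adjusted p = 0.0106, and 0.0576 without replicate 2 of treated WT cells). Slc4a5, a bicarbonate transporter, had 57.8 and 36.5 against 411 and 475 untreated and 105 and 76.0 against 402 and 389 treated, a log2 difference of 2.16 (SE 0.264, adjusted p = 0.000838).

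Saa3, an acute phase protein with the CpG-poor promoter shown above, had 2.55 and 3.13 normalized counts in untreated WT and 255 and 173 in untreated Cfp1-/- replicates. In treated cells 2 raw counts in WT stood against 328 in Cfp1-/- cells, a ratio of 139 (95% exact interval 38.2 to 1153). A2m, a protease inhibitor of plasma, had 188 and 159 against 1041 and 1771 untreated and 114 and 97.2 against 632 and 1328 treated. Kng2, a kininogen, had 9.34 and 10.4 against 274 and 208 untreated and 3.93 and 7.39 against 154 and 88.7 treated. Ceacam20, a cell adhesion protein, had 18.7 and 15.6 against 795 and 775 untreated and 27.5 and 9.51 against 842 and 952 treated. Trim12a, a tripartite motif gene with close relatives, had 6.80 and 4.17 against 283 and 442 untreated and 0 and 6.34 against 56.2 and 90.6 treated. Each of these 5 genes was called higher in treated Cfp1-/- cells. Nod1 (ENSMUSG00000038058, chromosome 6, 54873936 to 54922606), a cytosolic sensor of bacterial peptidoglycan, was the exception, with 25.5 and 43.8 against 336 and 415 untreated and 81.2 and 86.6 against 88.8 and 95.4 treated. Its treated log2 difference was 0.16 (SE 0.286, adjusted p = 0.714).

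The 92 genes were spread over all 19 autosomes, from 0.386% of the genes at a mean of 200 on chromosome 8 to 1.95% on chromosome 16, and chromosome 11 held 9 higher and no lower genes. In 4 cases 2 of the 92 genes were direct neighbours among the 9155. Besides Olig2 and Olig1 these were 6330407J23Rik and 9330159F19Rik (both lower, 12.0 kb apart on chromosome 10), Calcoco2 and Ttll6 (both higher, 21.8 kb apart on chromosome 11), and Sycp3 and Spic (lower and higher, 202 kb apart on chromosome 10). Calcoco2, an autophagy receptor, had 294 and 164 against 5088 and 2909 normalized counts untreated and 203 and 226 against 3076 and 1522 treated, a treated log2 difference of 3.45 (SE 0.415, adjusted p = 0.000776). Ttll6, which adds glutamate chains to tubulin, had 60.3 and 46.9 against 775 and 337 untreated and 1622 and 1153 against 2009 and 2234 treated, a treated log2 difference of 0.64 (SE 0.324, adjusted p = 0.174). The lines thus differed less at Ttll6 when treated, and the test was not passed, while its neighbour kept its difference. Within 100 kb of this pair, Atp5g1 had 487 and 527 in untreated WT and 1200 and 1535 in untreated Cfp1-/- replicates, and Gip, an incretin hormone gene, had 1.70 and 1.04 against 37.1 and 17.7. Igf2bp1, also within 100 kb, differed by -0.19 on the log2 scale between the untreated lines.

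The lines lay closer together in treated cells for most genes. The difference was smaller for 33 of the 35 lower and 47 of the 57 higher genes, by more than 1 on the log2 scale for 21 and 27 of them, and larger by more than 1 for none of the lower and 3 of the higher genes. These changes rest on the untreated libraries that selected the genes for a large difference, so they are given without a test. Among the 19 lower and 34 higher autosomal genes that met the same limits in the treated lines, which favours large treated differences instead, 8 and 21 had the smaller difference in untreated cells. On the lower side the log2 difference changed most for Pkdcc, by 4.96 (SE 0.79), followed by Trim67 (2.60, SE 0.744), Fxyd6 (2.58, SE 0.333), Atp1a4, a sodium pump subunit of sperm (2.52, SE 0.703), and Gbp1 (2.48, SE 2.97). On the higher side the change of the difference was -3.53 (SE 1.29) for Olig2, -3.32 (SE 0.413) for Nod1, -3.15 (SE 1.08) for Spic, -3.03 (SE 0.303) for Myo7a and -2.76 (SE 0.502) for Ttll6. Only Asz1, Nlrp4c and Ccdc152 had a difference larger by more than 1, with changes of 1.18 (SE 0.621), 1.15 (SE 0.298) and 1.11 (SE 0.637).

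Responses to doxorubicin, treated minus untreated within a line, were counted per line. They use the untreated libraries that selected the genes and were not tested. Selection on a low untreated value favours a rise in that line, and selection on a high one favours a fall. Among the higher genes, 19 of 57 were over 1 log2 unit above their untreated level in treated WT cells and 3 in treated Cfp1-/- cells, where 24.3% and 24.1% of all tested genes were. Ttll6 had the largest such response in WT cells, of 4.73 (SE 0.402) against 1.97 (SE 0.336) in Cfp1-/- cells, followed by Myo7a with 4.02 (SE 0.24) against 0.99 (SE 0.192), Slc5a1 with 3.21 (SE 0.323) against 1.76 (SE 0.272) and Ablim1 with 3.13 (SE 0.26) against 0.71 (SE 0.23). The Cfp1-/- response of Ablim1 includes the affected run, in which this gene had 0 counts. Its line difference changed by -2.42 with that run and by -2.16 without it. Over 1 log2 unit below the untreated level were 8 of the 57 in WT and 9 in Cfp1-/- cells, where 9.45% and 8.69% of all tested genes were. Spic and Hesx1 had responses of -4.66 (SE 0.62) and -4.08 (SE 0.369) in Cfp1-/- cells, and Olig2 -3.19 (SE 0.333). Among the lower genes, 10 of 35 were over 1 log2 unit above their untreated level in treated Cfp1-/- cells and 2 in treated WT cells, Kbtbd11 and Hebp1, a heme-binding protein. The largest of these responses in Cfp1-/- cells were 5.06 (SE 0.64) for Pkdcc, 3.06 (SE 0.703) for Kbtbd11, 2.64 (SE 0.215) for Sned1 and 2.44 (SE 0.25) for Fxyd6. In treated WT cells 11 of the 35 lower genes were over 1 log2 unit below their untreated level, led by Pax6 at -4.60 (SE 0.512), Fgf5 at -3.96 (SE 0.949) and Sfmbt2 at -3.11 (SE 0.214), and 5 were so in treated Cfp1-/- cells. All 5 of the latter, Pax6, Fgf5, Sfmbt2, Enpp2 and 6330407J23Rik, were among the 11.

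**Figure D5:**
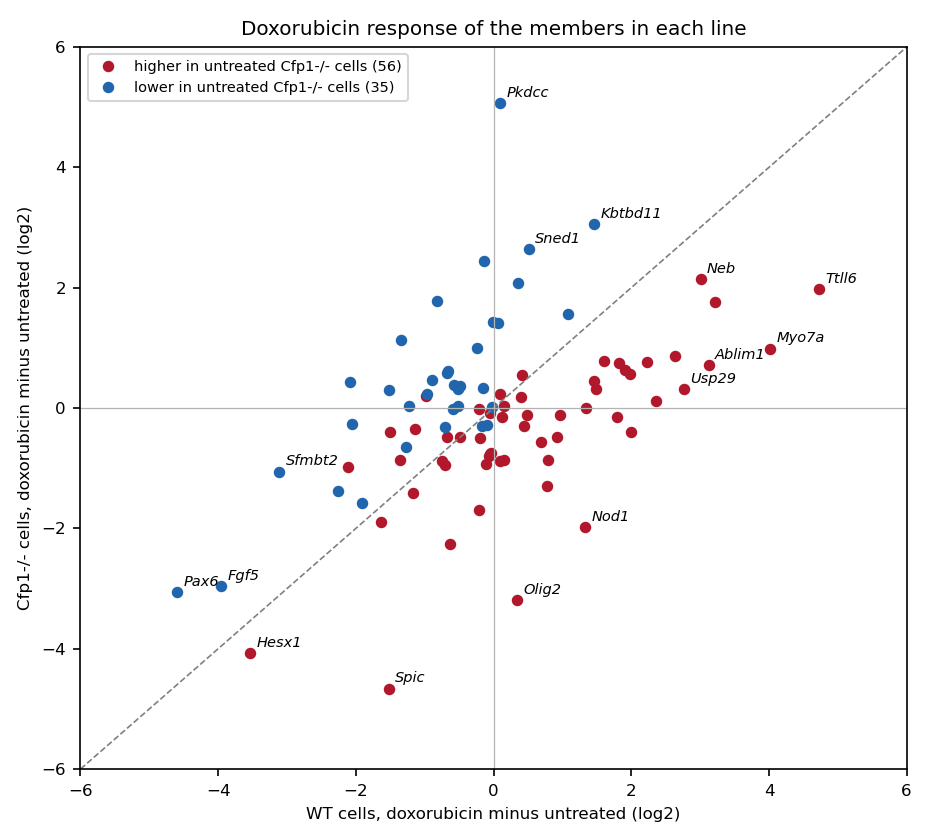
Response to doxorubicin (log2, treated minus untreated) of the genes in WT cells (horizontal axis) and Cfp1-/- cells (vertical axis), for genes lower (blue) and higher (red) in untreated Cfp1-/- cells, without 1 higher gene that is not reported here. Points off the dashed line of equal responses changed their line difference, with most blue points above it and most red points below it. Both axes use the untreated libraries that selected the genes, which favours this arrangement.

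Lists of gene functions, chosen by gene name or by families of gene symbols, held 14 of the 35 lower and 22 of the 57 higher genes. Predicted or unnamed genes made up 5 and 8 of these, out of 597 that reached a mean of 200, and 121 of 1545 tested genes of this kind were lower and 242 higher in treated Cfp1-/- cells. No Hox gene and no 2-cell gene reached that mean, and none of 302 zinc finger genes named by number that did reach it passed the 8-fold limit. Of 12 tested 2-cell genes, which are transcribed around the first cleavage of the embryo and belong to families of near-identical copies, 9 were higher in treated Cfp1-/- cells, and 1 of 6 tested Hox genes was lower. The list of signalling ligands and receptors held Fgf5, and that of metabolic enzymes (symbols in Cyp, Gst, Aldh, Akr and Ugt) held Cyp2j13. Both were lower, and these 2 lists held no other gene past the limit. Lists by symbol family leave out other genes of the same function, such as the enzymes Aass and Cbr3 described above. In treated Cfp1-/- cells 31 of 343 tested signalling genes were lower and 49 higher, as were 10 and 28 of 157 metabolic enzymes, 29 and 36 of 233 matrix and adhesion genes, 20 and 31 of 131 cytoskeleton and muscle genes, and 47 and 53 of 409 zinc finger genes, where 10.8% and 15.1% of all tested genes were. The median treated log2 differences of these 5 lists were 0.05, 0.23, 0.12, 0.22 and 0.03, against 0.02 for all tested genes.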

How the data were processed

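After depletion of ribosomal RNA, the authors built stranded paired-end libraries, aligned reads to NCBIm37 with STAR (version 2.2.1 in the submitters' processing notes) and counted them on exons of Ensembl genes with HTSeq-count in stranded union mode, which drops reads on overlapping genes of 1 strand and reads with several alignments. They deposited raw counts per technical replicate and a normalized signal per biological replicate, the summed count divided by a DESeq size factor. Both tables hold 22375 genes, and 22324 were matched to a symbol. The authors' normalized counts served for selecting genes and for levels. Counts of technical replicates were added up, so each group has n = 2. In 6 of 8 pairs their chi-square per degree of freedom was 0.998 to 1.05, and it was 9.61 for treated WT replicate 1 and 42.9 for treated Cfp1-/- replicate 1, against 7.95 to 20.8 between biological replicates. No source says that biological replicates came from separate cultures, so p-values measure the spread between these samples, which may be technical.

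Raw counts were analysed with edgeR 4.0.16 in R 4.3.3 (filterByExpr, TMM, glmQLFit, glmQLFTest, 1 coefficient per group, Benjamini-Hochberg over 15758 genes, two-sided). Only the treated line difference was tested, at an adjusted p-value under 0.05, since the other contrasts share libraries with the selection. On simulated counts for this comparison, 89% of 200 genes changed 3-fold among 15347 were recovered, with 14 false calls. The changed genes were drawn from those above a limit on mean expression. No gene was simulated near 0 in 1 line and high in the other, so the 89% does not cover such genes. Intervals (95%, exact binomial) cover counting error only. Total counts of 14880589 to 29422711 set the precision for genes near 0. Promoter sequence was read from the NCBIM37 reference at the coordinates of the deposited tables.

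The genes and lists were chosen with earlier results of these data known. In each direction, genes were named for the 15 largest ratios, the 5 highest means, nearness to a limit, membership of a function list, a treated difference that was not called, or the 5 largest changes with doxorubicin each way, and any of the 35 lower genes could be named. Of the higher genes, 1 is counted in the totals but its values are not reported here, and 1 gene next to a limit is likewise left out. Hesx1, Ablim1, Cpn1, Sycp2l, Gm1070, Ly6g6e, Acpp and the genes near Calcoco2 were named after their values were seen. Alternatives were DESeq2's size factors and Wald test (version 1.42.0), no filter, the replicate number as a block, treated libraries only, no affected run, other limits and each replicate left out. Both deviating second technical replicates were left out as an alternative chosen after seeing the data.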

Additional observations from a re-analysis of the deposited data

Results flagged for a closer look

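In 7 of the 92 genes both treated replicates moved past both untreated replicates in opposite directions in the lines. How many of all tested genes do so was not counted, so 7 of 92 cannot be read as many or few. The difference between the lines' responses was not tested, since the untreated libraries selected these genes. Among the lower genes, Prss23, a serine protease, and Ccnb1ip1 had treated values below untreated ones in WT cells and above them in Cfp1-/- cells, and their line difference changed by 1.24 and 1.20 on the log2 scale. Among the higher genes, treated values were above untreated ones in WT cells and below them in Cfp1-/- cells for Nod1, Ly6g6e, BC046404, Slc4a5 and Acpp, with changes of -3.32, -2.40, -2.08, -1.09 and -0.73. For Slc4a5, Acpp and Ly6g6e the response in Cfp1-/- cells was small, at -0.12 (SE 0.242), -0.30 (SE 0.238) and -0.40 (SE 0.234). The response in WT cells was small for Prss23, at -0.25 (SE 0.258), and for Acpp, at 0.44 (SE 0.327). That of Ccnb1ip1 in Cfp1-/- cells was 0.24 (SE 0.179). Nod1 had the largest opposite responses, 1.33 in WT and -1.98 in Cfp1-/- cells.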

How the results depend on the processing

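All 92 genes kept the sign of their treated difference in the fits whose calls are given here (with treated libraries only, Fgf5 and Hesx1 did not pass the filter), and no count of called genes moved by over 1.5 times. Of the 35 lower genes, 30 were called with DESeq2's size factors, with its Wald test and without the affected run, 31 without the filter or with treated libraries only, and 29 without both deviating second runs. For the 57 higher genes the count was 53 without the affected run, where Gm1070 lost its call (adjusted p = 0.0644), and 54 under the other 5. With treated libraries only, the median treated log2 difference of the lower genes was -2.64. Leaving out each replicate in turn gave 22 to 32 and 48 to 54 calls and medians of -2.96 to -2.31 and 2.89 to 3.27, where the lone library of a group is assumed to vary like the others. The replicate numbers are shared by all groups, but no source says what they share. Deviations of equally numbered replicates correlated at 0.129 to 0.407 for the 6 pairs of groups. A replicate block gave 33 and 55 calls, adding Fgf5, Has2, Enpp2 and Ttll6 with adjusted p = 0.00269, 0.00018, 0.00083 and 0.035 from edgeR. Has2 was also called without the filter and with treated libraries only, and Ttll6 with treated libraries only.

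The number of genes follows the limits: a ratio of 4 gave 108 lower and 148 higher genes, a ratio of 16 gave 11 and 27, a mean of 100 gave 44 and 103, and a mean of 400 gave 22 and 32. TMM scaling gave 34 and 58. The rule was met in each replicate alone by 20 of the 35 and 44 of the 57 genes. Leaving out each untreated replicate gave 30 to 45 and 52 to 75 genes. With n = 2, genes with widely spaced replicates could have treated log2 differences as large as -2.36 (Fgf5) without passing the test, and genes near 0 in 1 line have wide intervals.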
